A study of Mus musculus with 2 samples.

Results

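Tight clusters of CTCF binding sites were described here in newborn mouse stomach. A cluster was a run of 3 or more CTCF peaks on an autosome, each with a signal of 23 or more, in which each summit lay at most 5 kb from the previous one. This selection gave 3522 clusters with 12472 member peaks, 19.1% of the 65225 autosomal peaks that passed the signal threshold. The deposited list of peaks held 74293 peaks in all, of which 72514 were on autosomes. Of the passing peaks, 8228 pairs of neighbours formed groups of 2 (25.2% of peaks) and 36297 stood alone (55.6%). The members were chosen by their signal and spacing, which are measured values, so sizes, spans, gaps and signals below are a description.

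The tissue was stomach of the mouse strain B6NCrl at postnatal day 0, with CTCF recovered by an antibody and the attached DNA sequenced (ChIP-seq). There was 1 group with 2 libraries, numbered as biological replicates 1 and 2. Both carry the same donor and the same tissue sample in the labels, so the spread between them may be technical. Sex is not recorded. With 1 group and no treatment no condition could be compared and no test across samples was possible. Percentages carry exact 95% intervals (Clopper-Pearson), which cover counting error only. Neighbouring peaks are not independent, and the number of reads behind a peak is unknown here.

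CTCF is a DNA-binding protein whose zinc fingers read a long, asymmetric sequence, so that each bound site has a direction. Cohesin, the ring complex that extrudes chromatin loops, is halted at bound CTCF, most often where the sites of a loop's ends face each other. CTCF also insulates genes from enhancers, as at the imprinted H19 locus, and it binds many gene promoters. Several sites side by side are known at boundaries between chromatin domains.

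The bound sequences of 6 clusters are shown first, because the results on site number, site strand and site likeness turn on them. Each line gives the best match to a CTCF matrix of 19 positions near the summit of 1 member, in mm10 coordinates, 5′ to 3′ on the stated strand. Capitals mark the 19 matched bases, and 5 flanking bases on each side are in lower case. The matrix was learned from 979 aligned windows of the 1000 strongest peaks of chromosome 1, and its consensus was TGGCCACCAGGGGGCACTA. A member was said to have a motif where the best score within 50 bp of its summit reached 10.482, a score met by 1% of random genomic windows. "Forward" below means that the matrix lies on the plus strand.

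The first set lies between Tmem121 and Igha, the constant gene of immunoglobulin A. It is shown because 9 of its 10 members had a motif, the highest number in a cluster, all on the plus strand. The line of member 5 scored 10.34, just below the threshold.
Tmem121 to Igha member 1, chr12:113216110-113216138, plus strand: tggagAGGCCACCAGGGGGTGCACaagca
Tmem121 to Igha member 2, chr12:113217454-113217482, plus strand: gcaatTGGACACTAGGGGGCATTTaagct
Tmem121 to Igha member 3, chr12:113218078-113218106, plus strand: tctacTGACCACACGGTGGCAGCAgagcg
Tmem121 to Igha member 4, chr12:113220045-113220073, plus strand: gcatcTAGCCACCAGGGGGCACATgagct
Tmem121 to Igha member 5, chr12:113220678-113220706, plus strand: accagAGGCCACATGAGGCCAGTAgagtc
Tmem121 to Igha member 6, chr12:113221400-113221428, plus strand: gcatcTGTCCACCAGGGGGCACCTgagca
Tmem121 to Igha member 7, chr12:113222208-113222236, plus strand: accaaTGGCCACATGGTGGCAGCAgagat
Tmem121 to Igha member 8, chr12:113222473-113222501, plus strand: acacaTGGTCACCAGGGGGCGCACgagcc
Tmem121 to Igha member 9, chr12:113222945-113222973, plus strand: ggctaTGCTCACACGGGGGCAGCAgagtt
Tmem121 to Igha member 10, chr12:113224388-113224416, plus strand: cacccAGTCCTCTAGAGGGAGCCCctgag

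The second set lies upstream of H19, an imprinted gene for a long noncoding RNA. It is shown because the matched bases of members 2 to 5 are alike and the matrix scores are low. Members 3 and 4 scored 10.47 and 8.351, below the threshold.
H19 upstream member 1, chr7:142579255-142579283, minus strand: cacaaCCACCACAAGGTGACAGCAcagac
H19 upstream member 2, chr7:142580302-142580330, minus strand: agacgATGCCGCGTGGTGGCAGTAcaata
H19 upstream member 3, chr7:142580757-142580785, minus strand: ggatgCTACCGCGCGGTGGCAGCAtactc
H19 upstream member 4, chr7:142581783-142581811, minus strand: cagggTTGCCGCACGGCGGCAGTGaagtc
H19 upstream member 5, chr7:142582027-142582055, minus strand: gggagTTGCCGCGTGGTGGCAGCAaaatc

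The third set lies upstream of Sfta2, a surfactant-associated gene, and is shown because all 5 members had a motif on the plus strand.
Sfta2 member 1, chr17:35578363-35578391, plus strand: gagttTCACCACTAGAGGGCAGACtctgc
Sfta2 member 2, chr17:35583071-35583099, plus strand: actgcTGGCCACAAGAGGGCACCAgatcc
Sfta2 member 3, chr17:35584458-35584486, plus strand: atctgTTGCCAGCAGAGGGAGCCAgtggg
Sfta2 member 4, chr17:35587480-35587508, plus strand: cttggAGGCCAGAAGAGGGCATCAgattc
Sfta2 member 5, chr17:35590987-35591015, plus strand: cagttTTGCCACTAGGGGGCTCATgagca

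The fourth set lies at Gli1, a transcription factor of the hedgehog pathway, with 4 of 5 summits in the gene body, and is shown because all 5 members had a motif but on mixed strands.
Gli1 member 1, chr10:127332264-127332292, minus strand: cccgcATGCCAGAAGAGGGCGTCAgttcc
Gli1 member 2, chr10:127333343-127333371, minus strand: tctgtGTGCCAGAAGAGGGCGCCAagatc
Gli1 member 3, chr10:127335411-127335439, plus strand: tctacATGACAGAAGAGGGCAGCAgatca
Gli1 member 4, chr10:127339011-127339039, plus strand: tccagTGTCCACTAGAGGGAGACCtcgtt
Gli1 member 5, chr10:127342473-127342501, minus strand: taggaCGACCAGCAGAGGGCGCGAaaagc

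The fifth set holds the 5 members with a motif in the cluster of 10 at Pdgfra, the alpha receptor of platelet-derived growth factor and a marker of mesenchyme.
Pdgfra member 1, chr5:75143404-75143432, minus strand: gttttAGACCACTAGAGGGCACAAgaggc
Pdgfra member 4, chr5:75150183-75150211, minus strand: atagtGCCCCAGTAGGGGGTGGAGcaggc
Pdgfra member 8, chr5:75155809-75155837, plus strand: ctggcTGGCCTGCAGGAGGCGCTGtggct
Pdgfra member 9, chr5:75156363-75156391, minus strand: tgcggGAGCCACTAGAGGGCGCGGcaacc
Pdgfra member 10, chr5:75157247-75157275, minus strand: cagagTAGACAGCAGATGGCAGTGttggt

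The last set lies in an intron of Zdhhc18, a palmitoyltransferase gene next to Sfn. It is shown because members 2 and 3 are nearly the same sequence.
Zdhhc18 member 1, chr4:133609907-133609935, minus strand: cagtcCTGACAGCAGGGGGCGCCAgagct
Zdhhc18 member 2, chr4:133612001-133612029, plus strand: agaggAGACCAGAAGAGGGCACTAggtta
Zdhhc18 member 3, chr4:133612570-133612598, plus strand: agaggAGACCAGAAGAGGGCACTGggtta

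Most clusters were small. There were 2305 clusters of 3 summits, 65.4% of all (63.9 to 67.0%), then 786 of 4, 265 of 5 and 110 of 6. Clusters of 7 numbered 35 and clusters of 8 numbered 14. Above that stood 2 clusters of 9, 3 of 10, 1 of 11 and 1 of 12. The number of groups fell at every step from 1 summit to 9, as the plot of group sizes shows. The median span from the first to the last summit was 5498 bp, with quartiles of 3812.5 and 7468.5 bp and a range of 417 to 29782 bp. Clusters of 3 had a median span of 4724 bp and clusters of 6 a median span of 10628.5 bp. The median gap between neighbouring members was 2149.5 bp, and in groups of 2 it was 2149 bp. Only 1.37% of the 8950 gaps were 300 bp or less, and the peak intervals of neighbours overlapped at 1.11% of gaps. At the edges of the rule, the weakest member had a signal of 23.02 and the strongest peak left out by the signal threshold had 22.999. The widest joined gap was 4998 bp and the narrowest gap not joined was 5001 bp.

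**Figure D1:**
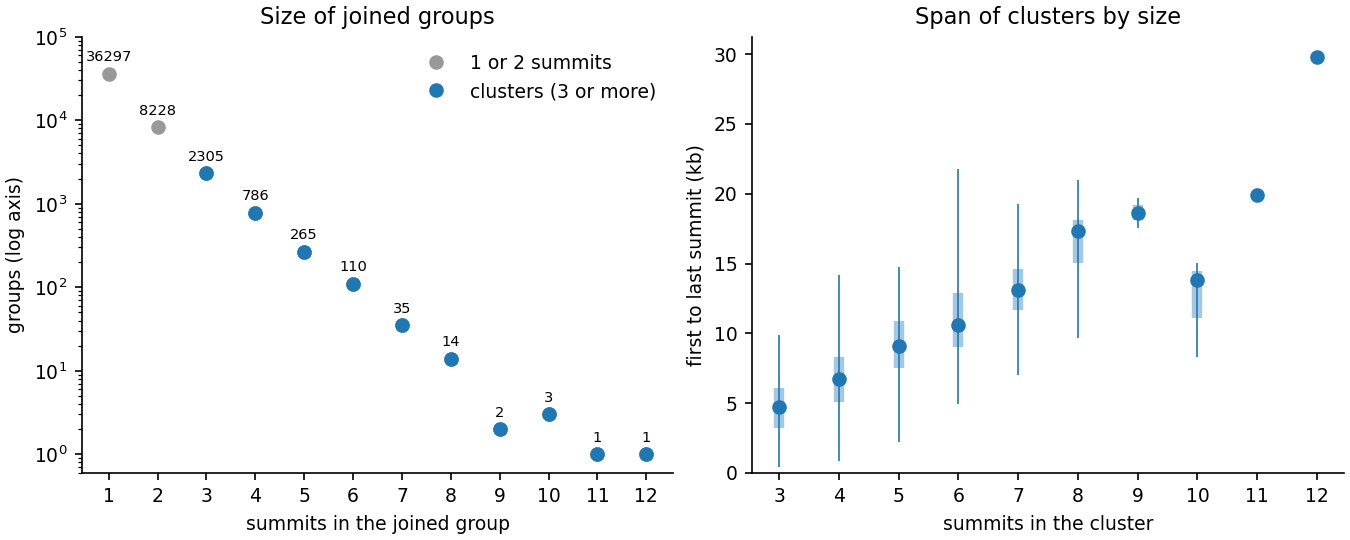
Left, number of joined groups (log axis) by the number of summits they hold, with clusters in blue. Right, distance in kb from the first to the last summit for each cluster size, as the median (point), quartiles (thick bar) and range (thin line). Groups of 3 summits number 2305 and the single group of 12 spans 29782 bp.

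Within a cluster the members were unequal. The strongest member had a median signal of 336.8 (quartiles 195.2 and 421.2), the member of rank 2 had 132.3 and that of rank 3 had 51.1. In clusters of 3 the strongest exceeded the second by a median factor of 1.85 and the weakest by 5.02, where ranking itself sets the direction. Every member lay above the median of all passing peaks, 93.4, in 14.3% of clusters, every member lay below it in 10.2%, and exactly 1 lay above it in 27.9%. A peak of signal 387.4 or more, a level that 10% of all passing peaks reached, was present in 35.9% of clusters. These are shares of clusters with 3 or more members each, so they cannot be set against shares of peaks. Like shares for peaks grouped without regard to spacing were not computed.

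The place of the strongest member along the chromosome showed no preferred position. In clusters of 3 it was the first in 33.7%, the middle in 33.7% (31.7 to 35.6%) and the last in 32.6%, against an equal share of 33.3%. In clusters of 4 the shares ran from 22.6% to 26.7% against 25%. For the 868 clusters of 3 that lay wholly inside 1 coding gene, positions were also read along the gene. There the strongest member was the most upstream in 29.7% (26.7 to 32.9%), the middle in 36.3% (33.1 to 39.6%) and the most downstream in 34.0%. The interval of the most upstream place lay just under the equal share and the interval of the middle place reached it.

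The CTCF motif was less common at lower ranks, down to rank 6. It was present at 82.4% of strongest members (81.0 to 83.6%), 69.3% at rank 2, 59.7% at rank 3, 54.7% at rank 4, 49.8% at rank 5 and 42.6% at rank 6. The few members of ranks 7 and 8 broke this order, with 57.4% of 54 and 45% of 20. Ranks 1 to 3 exist in all 3522 clusters, but rank 4 in only 1217, rank 5 in 431 and rank 6 in 166. Rank also follows signal, and the motif share by signal outside clusters is not given here. The fall with rank is therefore not shown to be a trait of clusters. Motif shares are over chromosomes other than 1, from which the matrix came. The share of members within 1 kb of the start of a coding transcript (TSS) ran the other way, from 17.7% of strongest to 24.1% of members of rank 4, and then varied between 16.1% and 28.6% at ranks 5 to 8. Among the member motifs, 77.5% were centred within 10 bp of the summit. Strongest members with a motif had a median score of 17.3 and members of rank 3 had 15.8.

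**Figure D2:**
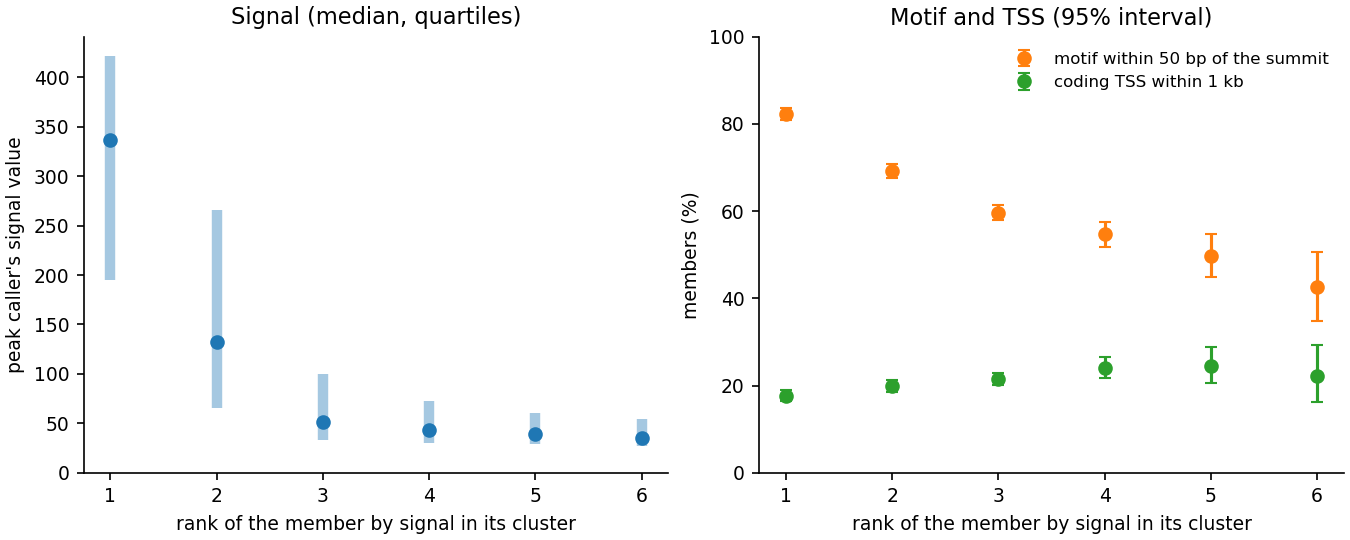
Left, signal of members by rank within their cluster, as the median (point) and quartiles (bar). Right, percent of members of each rank with a motif within 50 bp of the summit (orange) or a coding TSS within 1 kb (green), with exact 95% intervals. The motif share goes from 82.4% at rank 1 to 49.8% at rank 5. Ranks above 3 exist only in larger clusters.

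Over all members, 67.6% had a motif (66.8 to 68.5%), against 70.6% of all passing peaks, 68.9% of peaks in groups of 2 and 72.5% of single peaks (72.0 to 73.0%). At a threshold met by 0.1% of random windows the shares were 30.7% of members, 31.1% in groups of 2 and 32.2% of single peaks. At the main threshold, met by 1% of random windows, windows midway between neighbouring members carried a motif in 1.45% of 6618 cases. These windows lay between neighbours at least 1 kb apart and at least 200 bp from any summit of the deposited list. At least 2 motifs were present in 79.1% of clusters, a motif at every member in 31.3% and none in 4.73%, or 157 clusters. The most common numbers were 3 motifs, in 34.2% of clusters, and 2 motifs, in 31.8%. The 505 members of clusters with no motif had a median signal of 51.5 and a median GC content of 57.2%, and 44.2% lay within 1 kb of a coding TSS. Where every member had a motif, the median signal was 188.0, the median GC content 49.3% and the share near a coding TSS 7.29%.

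Distance from gene starts went with the motif share. Within 1 kb of a coding TSS, 39.2% of cluster members (37.3 to 41.2%), 37.9% of peaks in groups of 2 and 39.2% of single peaks had a motif, so the intervals overlapped. Beyond 10 kb the shares were 77.9% (76.7 to 79.0%), 76.1% and 76.6%. At 1 to 10 kb, cluster members had 71.8% (70.5 to 73.2%) and single peaks 76.7% (75.7 to 77.7%). The lower share of cluster members over all distances therefore appears at 1 to 10 kb and in the larger part of members near gene starts, not beyond 10 kb.

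**Figure D3:**
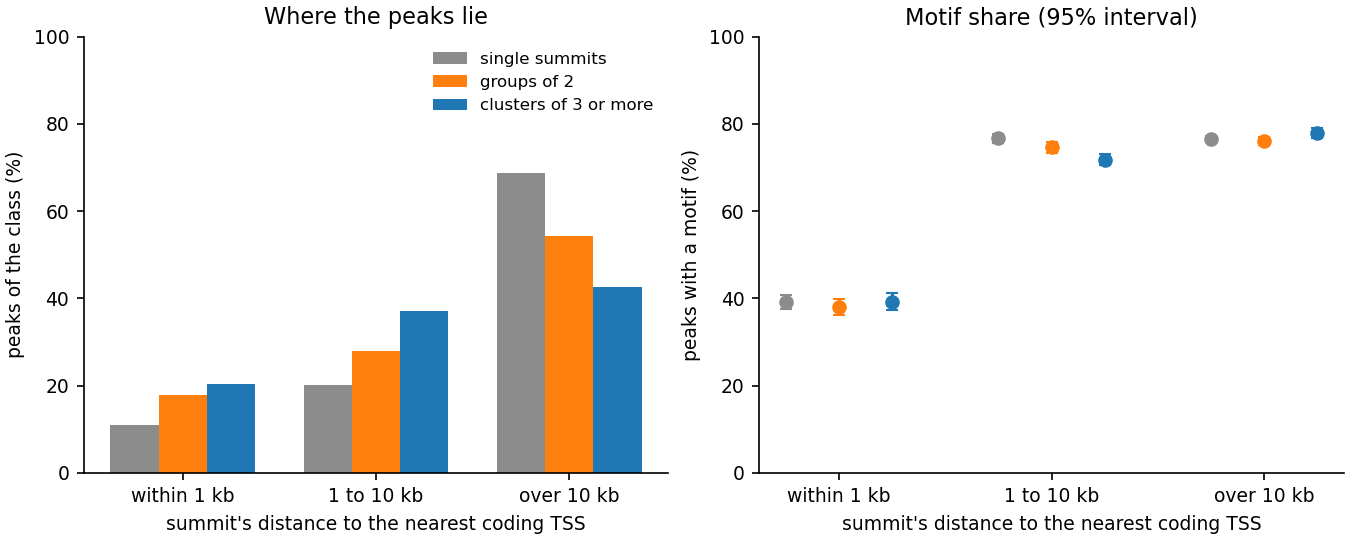
Left, percent of the peaks of each class by distance of the summit to the nearest coding TSS. Right, percent of peaks with a motif at each distance, with exact 95% intervals. Clusters have 20.3% of peaks within 1 kb against 11.03% for single peaks, while the motif share within 1 kb is 39.2% for both.

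Neighbouring motifs of a cluster lay on the same strand more often, and faced each other less often, than equal use of strands would give. Of 4104 neighbouring pairs of motifs, 54.7% were on the same strand (53.1 to 56.2%), 19.4% were convergent (forward then reverse) and 25.9% divergent. Equal use of strands would give 50% on the same strand and 25% each for convergent and divergent pairs. The convergent interval, 18.2 to 20.7%, lay below 25%, and the divergent interval, 24.6 to 27.3%, included it. In groups of 2 the shares were 55.7%, 19.2% and 25.1%, and their intervals overlapped those of the clusters. By gap in clusters, the same-strand share was 54.4% up to 1 kb, 57.7% at 1 to 2 kb and 53.5% at 2 to 3 kb. It was 54.9% at 3 to 4 kb and 51.3% at 4 to 5 kb, and all these intervals overlapped. All motifs lay on 1 strand in 30.2% of the 1137 clusters with 3 motifs (27.5 to 32.9%), where equal strands would give 25%. With 4 motifs the share was 17.2% of 308 clusters (13.2 to 21.9%) against 12.5%. With 2 motifs it was 52.1% of 1055 (49.1 to 55.2%) against 50%, and with 5 motifs 7.45% of 94 (3.05 to 14.7%) against 6.25%, so both intervals included the equal share. With 6 motifs it was 0 of 25 (exact interval up to 13.7%) against 3.12%. Where 3 motifs did not share a strand, reverse, reverse, forward was the most common order, with 195 clusters, and forward, reverse, reverse the rarest, with 90. Read from the other strand, the first is reverse, forward, forward, found in 168 clusters. The second is then forward, forward, reverse, found in 119. Which order of a mirror pair was counted depends on the reference strand. Of 2777 motifs in clusters inside 1 coding gene, 49.2% lay on the gene's strand (47.3 to 51.1%).

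Most sites of a cluster were not copies of each other. The 20 bases on each side of the matched bases were identical at a median of 27.5% of positions between motifs of a cluster. Only 1.703% of 8280 motif pairs reached 60%, in 125 clusters, against 2.09% of pairs in groups of 2. The Zdhhc18 pair printed above was the most alike among the named clusters, with 92.5% of flanking positions identical, and its members had signals of 71.8 and 67.6 beside a neighbour at 423.8. In the cluster between Tmem121 and Igha, 2 pairs passed 60% and the best reached 72.5%. There the matched bases of members 3 and 7 were identical at 17 of 19 positions and those of members 3 and 9 at 16. Members 1 and 8, and likewise members 4 and 6, were also identical at 16, while members 3 and 10 were at 8. Matched bases were all picked by 1 matrix, which favours shared bases.

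Cluster members lay near gene starts more often than other peaks. A coding TSS was within 1 kb of 20.3% of members (19.61 to 21.03%), against 14.5% of all passing peaks, 17.8% of peaks in groups of 2 and 11.03% of single peaks (10.7 to 11.4%). Of the clusters, 44.3% held a coding TSS between 1 kb before the first and 1 kb after the last summit (42.67 to 45.98%), and 7.07% held starts of 2 or more coding genes. That window widens with the span, and like shares for groups of 2 or single peaks were not computed. The 44.3% therefore cannot be set against the shares of peaks. Members at a start had a median signal of 70.8, a GC content of 61.7% and a motif in 39.2%. Other members of the same clusters had 105.6, 50.2% and 69.9%. Members of clusters with no coding TSS had 125.3, 49.8% and 77.5%. In the 444 clusters of 3 with exactly 1 member at a start, that member was the weakest in 38.3% (33.8 to 43.0%), the strongest in 30.6% and the middle one by position in 32.0%.

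By annotation, 45.2% of members lay in introns, 38.1% between genes, 6.64% in untranslated regions, 5.14% in coding exons and 4.85% in noncoding exons. Single peaks had 49.3%, 39.99%, 4.14%, 2.85% and 3.70% in the same classes. The median GC content of the 201 bp around the summit was 51.7% in clusters, 49.8% in groups of 2 and 48.3% in single peaks. A GC content of 60% or more was found at 18.4% of members and 9.14% of single peaks. The mean share of repeat-masked bases was 21.5% in clusters and 22.2% in single peaks.

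A gene body covered at least 1 summit of 76.9% of clusters and all summits of 38.9%. The first share rises and the second falls with the number of summits. Counted by peak, 38.1% of members and 39.99% of single peaks lay between genes. In all 2461 genes hosted a cluster and 201 hosted 2 or more. Coding hosts had a median length of 34831 bp, against 17629 bp for all coding genes. A longer gene body can hold more summits of any kind. Lengths of genes that hold groups of 2 or single peaks are not given here, so this is no trait of cluster hosts. The most clusters per gene name were the 24 in Gm20388, whose model is 4434882 bp long. Nav2, a neuron navigator gene with a role in cell migration, held 4 clusters with 12 summits in 701375 bp. Fgfr2, a fibroblast growth factor receptor, held 3 clusters within a model of 2960900 bp. Smad6, an inhibitor of BMP signalling, held 3 clusters with 13 summits in only 68984 bp. The long noncoding RNA Gm26694 also held 3.

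The largest cluster had 12 summits over 29782 bp at chr8:84180858-84210640, with its first summit in an intron of Nanos3, a germ cell gene. It also covers the microRNA genes Mir23a, Mir27a and Mir24-2. Its signals ran from 24.3 to 461.7, with 255.7 in replicate 1 and 206.6 in replicate 2 at the strongest member. Strong members stood at 5777, 6693 and 29782 bp from the first summit, and 8 of the 12 had a motif. The weakest member had 20.1 and 10.7 in the replicates and no motif.

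The next cluster had 11 summits over 19908 bp at chr10:74921083-74940991 beside Rsph14, a gene of the radial spoke family, and Gnaz, a G protein subunit gene. All 11 summits were intergenic and the nearest coding TSS lay 26186 bp away. Its first member was the strongest at 447.8, with 282.7 in replicate 1 and 165.4 in replicate 2. It had 8 motifs, reverse at members 1, 4 and 9 and forward at the other 5. Member 6, at 33.5, had a signal of 31.6 in replicate 1 and no summit within 100 bp in replicate 2.

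The cluster between Tmem121 and Igha had no weak member. Its 10 summits at chr12:113216127-113224411 fitted in 8284 bp, the narrowest of the 3 clusters of 10, and their summed signal of 2617.9 was the highest of all 3522 clusters. Its weakest member had 132.9 and its strongest 415.6. Members 7 and 8 were summits of 1 deposited peak interval. In replicate 1 the members had, from the first to the last, 195.8, 125.9, 226.6, 163.1, 176.5, 130.0, 181.2, 106.0, 136.4 and 80.0. In replicate 2 they had 131.3, 81.9, 191.3, 113.7, 139.3, 81.6, 156.6, 63.5, 85.7 and 53.2. Member 3 was the highest and member 10 the lowest in both. The cluster lies 30419 bp from Igha, on the side of the locus where an array of CTCF sites is known as the boundary of the immunoglobulin heavy chain genes.

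Pdgfra held a cluster of 10 summits over 13849 bp at chr5:75143411-75157260 that spans several annotated starts of the gene. Its strong members had signals of 308.6, 294.2, 312.1, 288.6 and 355.5, and its other 5 members had 31.6 to 50.4. Member 7 lay 3 bp from 1 of the downstream starts and had 22.5 in replicate 1 and 8.11 in replicate 2. Member 8, which lay 65 bp from another start, had 187.0 and 127.0. The strong member 5, 972 bp before the first annotated start, with 174.0 and 120.3, had no motif, with a best score of 1.61.

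The remaining clusters with the most summits lay at genes of several kinds. Of the 14 clusters with 8 summits, the 3 of highest summed signal are named here. At Zfp36l2, an RNA-binding protein gene, 10 summits stood over 15036 bp, where 1 member had 441.5 and the other 9 had 27.0 to 130.4, and 3 had a motif. At Tapbp, the antigen-loading gene tapasin, 9 summits covered starts of Daxx, Rgl2, Tapbp and Zbtb22. At P4hb, a protein disulfide isomerase gene, 9 summits had signals from 23.2 to 384.5. In Tmem189 next to Cebpb, a CCAAT-binding transcription factor gene, 8 summits included 1 of 548.1, with 301.5 and 248.8 in the replicates. At Fbxo44 and its F-box neighbours Fbxo2 and Fbxo6, 8 summits had 74.3 to 449.8. At Fosb, a subunit of the AP-1 transcription factor, 8 summits had 47.3 to 491.4, and the strongest member had no motif at the threshold.

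By summed signal, the cluster of 7 between Smug1, a DNA repair gene, and Cbx5, a heterochromatin protein gene, came second at 2394.6, with signals from 74.99 to 571.2. Its motifs were reverse at 5 members and forward at 1. The cluster in Tmem189 came next at 2084.3. By span, the cluster at Eno1, the glycolytic enzyme enolase, covered 21775 bp with 6 summits, and the cluster between Actn1 and Zfp36l1 covered 20982 bp with 8. The latter had a motif at all 8 members, 4 forward and 4 reverse. The narrowest cluster, nearest to Gnat3, held 3 summits in 417 bp with 3 forward motifs. All 3 are summits of 1 deposited peak interval, and the first, at 231.9, had no summit within 100 bp in replicate 1. The next, nearest to Tmem92, held 3 in 494 bp with signals of 39.7 to 50.1 and no motif. The third, at Crnde, held 3 in 754 bp and also had no motif. With summits within 300 bp counted as 1, the clusters near Gnat3 and Tmem92 had only 2 summits left and were no longer clusters, while the one at Crnde kept 3. Under the same count the cluster between Tmem121 and Igha kept 9 of 10 summits, that upstream of H19 4 of 5 and that at Peg3 3 of 4. The number of clusters was then 3464.

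**Figure D4:**
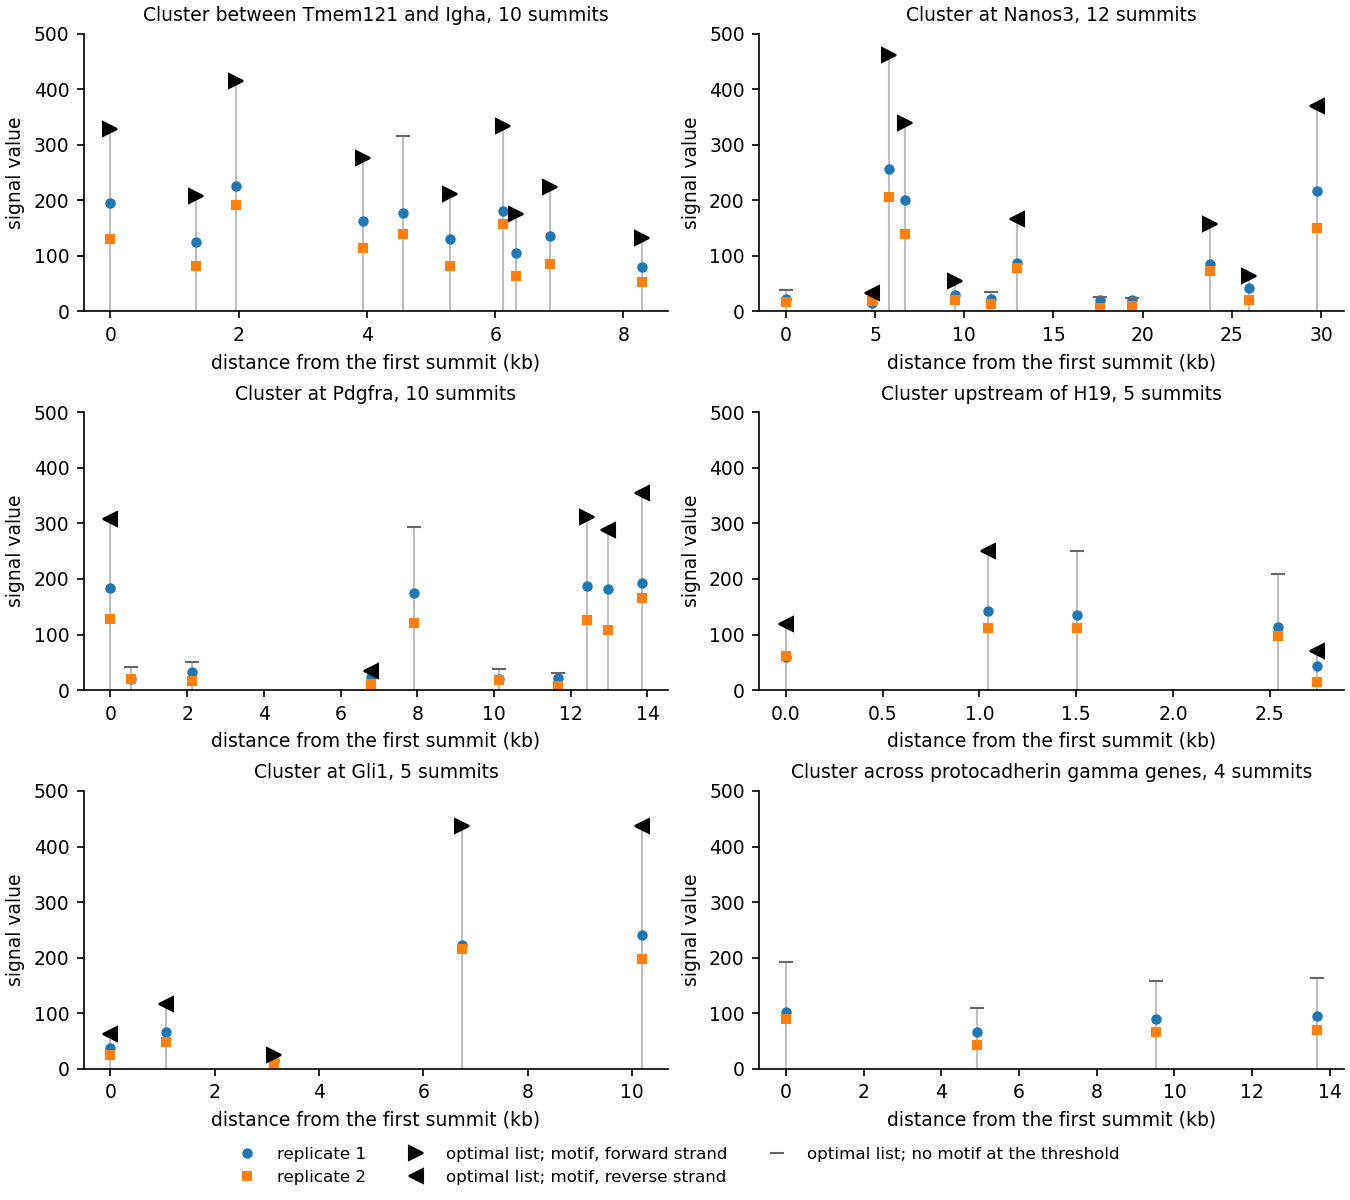
Signal value of every member against its distance from the first summit in kb, in 6 clusters. Triangles give the optimal list with the strand of the motif (dashes, no motif), circles replicate 1 and squares replicate 2. All 9 triangles of the cluster between Tmem121 and Igha point the same way, and the 4 protocadherin members have no motif.

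Gene lists were read with a cluster counted when a member lay within 10 kb of a TSS of the gene. Distances to a gene's TSS are to the nearest of its annotated starts. The cluster count held for 14.5% of the 20722 autosomal coding genes. Of imprinted genes, expressed from 1 parental allele, 20 of 47 had one (42.6%, 28.3 to 57.8%), through 15 distinct clusters. Some of these, such as H19, are noncoding genes, which the background of coding genes leaves out. Of forestomach squamous genes 6 of 18 had one, of cadherin, catenin and junction adaptor genes 6 of 20, of mesenchyme and smooth muscle genes 6 of 28, and of glandular epithelium genes 7 of 33. Of clustered protocadherins 12 of 57 had one and of Hox genes 8 of 39, each through only 2 clusters. Of enteric neuron and glia genes 2 of 17 had one, and so had 2 of 17 CTCF and cohesin genes. The interval lay above 14.5% for imprinted genes and included it for the other 8 lists. Genes of 1 locus share clusters, so the intervals are too narrow.

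**Figure D5:**
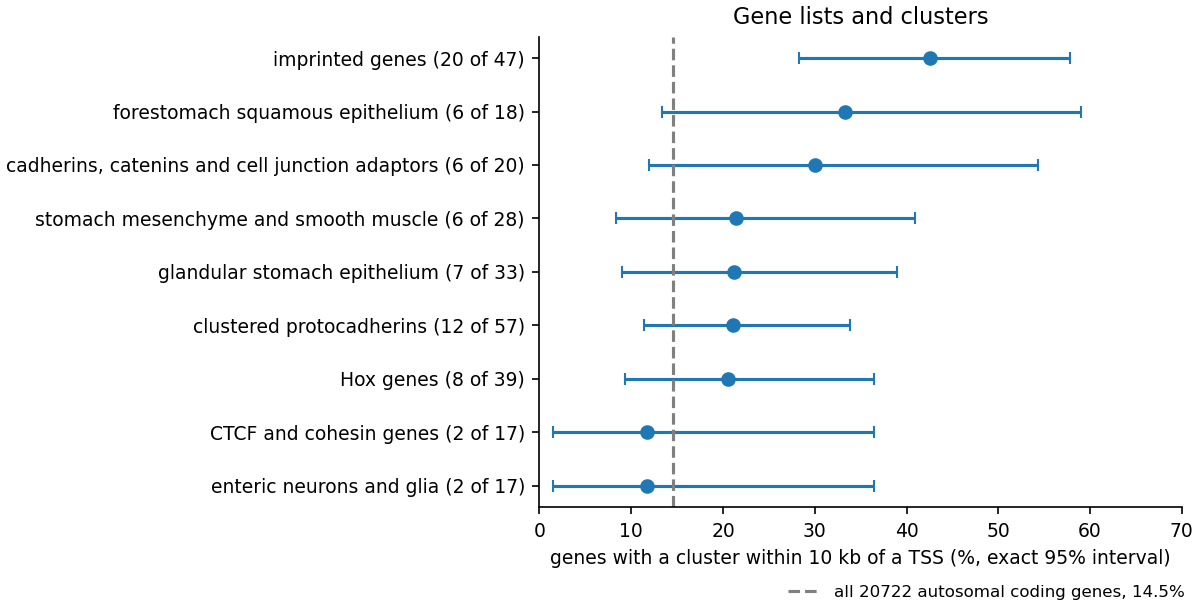
Percent of the genes of each list with a cluster member within 10 kb of a TSS, with exact 95% intervals and the counts in brackets. The dashed line is the 14.5% of all autosomal coding genes. Imprinted genes stand at 20 of 47.

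Among imprinted genes, H19 had 5 summits in 2745 bp at chr7:142579266-142582011, the nearest 1123 bp from its TSS. This is the stretch where the imprinting control region between H19 and Igf2 is known to bind CTCF on the maternal copy, and the parental copies are not separated here. The signals were 119.6, 249.7, 250.5, 209.2 and 70.6 in order. Members 4 and 5 were summits of 1 deposited peak interval. Replicate 1 had 60.1, 142.0, 135.3, 113.1 and 42.7, and replicate 2 had 61.8, 111.2, 111.9, 97.6 and 15.1. Members 2, 3 and 4 were the highest in both, although members 3 and 4 had no motif at the threshold. All 5 best matches lay on the minus strand. The matched bases of members 2 and 5 were identical at 17 of 19 positions, and the pairs among members 2 to 5 at 13 to 17. Pairs with member 1 were identical at 10 to 14. All are best matches to 1 matrix, which favours shared bases, and a level for unrelated matches was not computed. Members 1 and 2 at Gli1 were also identical at 17. Between the H19 members with a motif, the most alike flanks were identical at 27.5% of positions. That equals the median over motif pairs of clusters. Peg3, an imprinted zinc finger gene, shared 4 summits with Usp29 in 2921 bp, of which the first 2 came from 1 deposited peak interval. Members 1 and 3, at 129.5 and 129.2, had the 2 motifs, and member 4, 84 bp from a TSS of Peg3, had 48.8 in replicate 1 and 5.74 in replicate 2.

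Among mesenchymal genes beside Pdgfra, Barx1, a homeobox gene of stomach mesenchyme, had 5 summits whose nearest lay 2823 bp from its TSS. Its members 1 to 4 had forward motifs and signals of 25.1, 266.8, 403.2 and 374.3. Member 3 had 227.2 and 180.7 in the replicates. At Gli1 the members had 62.3, 115.7, 25.03, 436.5 and 436.3. The last 2 had 222.4 and 240.9 in replicate 1 and 215.1 and 197.9 in replicate 2, well above the other 3. They lay 918 and 512 bp from different annotated starts of Gli1, and the last member lay outside the gene body.

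Among epithelial genes, Klf4, a transcription factor of differentiating epithelium, had 5 summits, with the strongest at 291.4 in a coding exon. Its member 92 bp from a TSS was the weakest, at 25.2, with 19.3 and 5.55 in the replicates. Muc6, a gastric gland mucin, had 4 summits beyond 5121 bp from its TSS, 2 at 308.7 and 303.6 and 2 at 23.5 and 24.2. Pga5, a pepsinogen gene, had 1 strong summit at 406.4, 585 bp from its TSS, and 3 others of 23.7 to 89.1. In the squamous list Perp, a desmosome protein gene, had 4 summits of 36.0 to 185.8, and Sfn, a 14-3-3 protein gene of squamous cells, had the Zdhhc18 cluster 7752 bp from its TSS. Ovol1, a zinc finger factor of epidermis, had 3 summits in 1339 bp at Ap5b1, 6997 bp from its TSS. All 3 were strong, with 465.5, 407.1 and 415.8, and all 3 motifs were reverse.

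Among junction genes, Plec, the cytolinker plectin, had 6 summits over 15267 bp with 5 motifs and signals of 48.8 to 428.7. Cdh11, a mesenchymal cadherin, had 5 summits with 1 motif, at the member of 452.4. Tjp3, a tight junction scaffold gene, had 4 strong summits of 225.2 to 400.01 in 4829 bp.

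Of the Hox genes, Hoxb5, Hoxb6 and Hoxb7 shared 1 cluster of 4 summits over 8557 bp, strong at its 2 ends (346.3 and 402.3) and weak between (33.2 and 25.9). Its end motifs were reverse at the first and forward at the last member. In the gamma protocadherins, cell-surface proteins used in varied combinations by neurons, 1 cluster of 4 summits had a member 43 to 80 bp from each of 4 gene starts. Their signals were 192.4, 108.8, 157.2 and 164.1, with 102.5, 66.2, 90.0 and 94.5 in replicate 1 and 89.6, 42.4, 65.2 and 69.1 in replicate 2. None had a motif within 50 bp of the summit, with scores of at most 4.76.

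Of the enteric list, Gfra1, a coreceptor of the ligand GDNF, had 3 summits in 1312 bp at its start, with 53.0 to 70.9 and no motif, and Hand2, a transcription factor gene of enteric neurons, had 3 from 7060 bp off its TSS, 1 of them with a motif. Of the cohesin genes, Nipbl, the cohesin loader, had 3 summits with 1 motif. Pds5a, a cohesin regulator, had 3 with none, the strongest at 385.3.

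The replicates found the same peaks in most clusters. Of the members, 91.9% (91.4 to 92.4%) had a summit within 100 bp among the strongest 74293 peaks of each replicate, against 92.2% of all passing peaks. That number is the size of the whole deposited list, all chromosomes included. Every member was found in both in 74.9% of clusters. Joined by the same rule, the strongest 65225 autosomal peaks of replicate 1 gave 3662 clusters and those of replicate 2 gave 3555. Of the 3522 clusters, 89.2% overlapped a cluster of replicate 1 and 85.3% a cluster of replicate 2. Among clusters with a value for every member in both, the same member was the strongest in 89.5% of 3335. The order of all 3 was the same in 74.4% of 2211 clusters of 3. Over the 12274 members with both signals, Spearman's rho was 0.952 across peaks. The peaks are not independent. The main list was made from both replicates, and its signal had a median ratio of 1.00 to the sum of their signals, so this is no independent check of it.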

How the data were processed

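Peak lists in mm10 coordinates were deposited, of which 4 were used: the optimal and the conservative list after IDR (a filter on agreement of ranks between replicates), and the relaxed list of each replicate. Which aligner, peak caller and IDR cut-off served is not given in the sources used here, nor is read depth. The signal of a peak is the authors' deposited value from their peak caller and was compared only within a list. The optimal list gives the peaks. Replicate values are from the relaxed peak whose summit was nearest and within 100 bp.

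Joining, distances and the motif search were tested on simulated data. Genes were those of GENCODE release M21, and sequence was read from the mouse reference GRCm38, which mm10 names. A coding TSS is the start of a protein-coding transcript. Motif thresholds came from 99999 random windows off chromosome 1. Tools were Python 3.11.15, numpy 2.4.6, pandas 2.3.3, scipy 1.17.1 and matplotlib 3.10.9.

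The members, gene lists and naming rule were chosen with earlier results of these data known. Named were the 10 clusters with most summits, 3 each of highest summed signal, widest, narrowest and with most motifs, 2 with most motifs on 1 strand, up to 3 genes per list and the 5 hosts with most clusters. The split by TSS distance, the place of the member at a TSS, motif strand against gene strand, likeness of flanks and matched bases, and the below-threshold matches printed were added after first results had been seen. Alternatives changed the joining distance, the thresholds, the list, the replicate and the merging of close summits. No value was tested against chance.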

Additional observations from a re-analysis of the deposited data

Results flagged for a closer look

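The optimal list held 266 peaks below the signal threshold inside the spans of clusters, between a first and a last summit. They were not counted as members, and the values with no signal threshold are given with the other alternatives.

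Chromosome X lay outside the selection. The same rule found 45 clusters there, with 162 of its 1637 passing peaks. Sex is not recorded in the labels, so the number of X copies is not known.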

How the results depend on the processing

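Over 83 alternative values, 40 stayed within the stated limits and 43 moved. None was tested, so a move is a change in value only. Limits were 1.5 times for counts, the exact interval for shares and the spread between replicates, 54.4 bp, for the span.

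With joining at 2.5 kb there were 1464 clusters with 4843 peaks and a median span of 2850 bp. The strongest member was in the middle in 31.7%, 62.9% of members had a motif, 27.1% lay near a coding TSS, 46.8% of clusters held one and 6.26% of coding genes had a cluster. With joining at 10 kb there were 6386 clusters with 25961 peaks and a span of 11105 bp, and the last 4 shares were 69.4%, 17.7%, 49.3% and 28.5%. The clusters from replicate 1 then overlapped 90.6% and those from replicate 2 88.3%. Number and span follow the joining distance by construction.

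With no signal threshold there were 4548 clusters with 16465 peaks, the span was 5366 bp, the motif share 62.4%, members near a TSS 22.7%, clusters with a TSS 46.9% and genes 18.7%. With a threshold of 46 there were 1856 clusters with 6284 peaks, the span was 5363 bp, and the shares were 76.9%, 17.2%, 39.7% and 7.56%. The conservative list gave 68.5% with a motif, 19.3% near a TSS and 13.8% of genes.

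From 1 replicate alone the number of clusters was 3555 to 3662, their peaks 12642 to 13071, the span 5431 to 5508 bp, the middle share 33.1% to 33.2%, the motif share 65.5% to 66.9%, the same-strand share 54.3% to 54.7%, members near a TSS 19.9% to 22.4%, clusters with a TSS 43.5% to 47.5% and genes 14.5% to 15.5%.

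A motif threshold met by 0.1% of random windows left 30.7% of members with a motif. With the TSS of all genes, 28.0% of members and 56.9% of clusters were near one. Within 50 kb, 32.6% of coding genes had a cluster. Members found in both replicates were 90.5% with summits within 50 bp and 98.4% among all relaxed peaks. The same-strand share stayed within its interval under all 10 of its alternatives. No paired analysis was possible because there is 1 group and no test. Read depth is unknown here, and the 2 replicates limit what the spread can show.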

Other observations

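Clusters were spread over every autosome, with 1.47 per Mb of sequence outside assembly gaps. Chromosome 11 had the most per Mb, 2.80, with 333 clusters, and chromosome 13 the fewest, 0.922, with 108. Chromosome 11 also had more passing peaks per Mb (41.3 against 22.99) and more coding genes per Mb (13.8 against 7.09). The order of chromosomes by coding genes was a different one. Chromosome 7 had the most coding genes per Mb, 14.2, with 1.97 clusters per Mb, and chromosome 12 the fewest, 5.49, with 1.09. The share of passing peaks that lay in clusters was 24.9% on chromosome 11 and 14.8% on chromosome 13. The median distance from a cluster to the next was 186898 bp, and for 297 clusters the next one began within 20 kb.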
